A study of Mus musculus with 13 samples.

Results

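The Ifitm genes encode small membrane proteins, several of them induced by interferon. Followed here were 4 of these genes, Ifitm1, Ifitm2, Ifitm3 and Ifitm10, in T cells from tumors with Treg cells left in place or ablated. These 4 genes were found by symbol among the 12963 rows of the deposited expression table, and all 4 passed the filter on low values that 12667 rows passed. They were chosen by the response of the family to Treg cell ablation, so the differences between diphtheria toxin (DTx) and PBS groups are given for them as descriptions with no test.

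RNA sequencing was performed on T cells sorted from subcutaneous melanomas that arose from the mouse line B16-F10 in Foxp3-EGFP-DTR hosts. All groups shared this genotype and this tumor. The endogenous Foxp3 gene drives EGFP and the human diphtheria toxin receptor in these animals, so DTx kills Foxp3-expressing Treg cells while PBS leaves them intact, and EGFP served to sort Treg from conventional cells. The groups were Treg cells after PBS (Treg PBS, n = 3), CD4 conventional T cells after PBS (CD4 PBS, n = 2), CD8 T cells after PBS (CD8 PBS, n = 2), CD4 conventional T cells after DTx (CD4 DTx, n = 3) and CD8 T cells after DTx (CD8 DTx, n = 3). No group of DTx-treated animals that lack the receptor was analysed here, so DTx and the loss of Treg cells cannot be told apart in these libraries. Because samples are bulk RNA, a change in the share of cells that express a gene and a change in RNA per cell cannot be told apart either.

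IFITM proteins sit in the plasma membrane and in endosomes, where they hinder the fusion of enveloped viruses with the cell. Interferons induce several of them through transcription factors that bind an element called ISRE (type I interferon) or GAS (interferon gamma) in the promoters of their targets. Ifitm1 is found mostly at the cell surface, where it associates with the tetraspanin Cd81, whereas Ifitm3 is held in endosomal membranes and Ifitm2 is its close relative. Ifitm10 is a divergent member about which little is known. In the mouse, Ifitm1, Ifitm2 and Ifitm3 are next to each other on chromosome 7, with Ifitm10 farther along the same chromosome.

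The promoters of the 4 genes are shown because Ifitm1, Ifitm2 and Ifitm3 differed by large folds after DTx and Ifitm10 did not. Each window runs from 250 bases before to 50 bases after a gene start in RefSeq (build GRCm38.p6, which is not the NCBIM37 build of the reads), and all 4 genes were matched. Capitals mark matches to GAAANNGAA, the core of ISRE, or to TTCNNNGAA, the GAS letters, on either strand, the latter reading the same on both strands. Ifitm1 lies at chr7:140967826-140968125 on the plus strand, Ifitm2 at chr7:140955912-140956211 on the minus strand and Ifitm3 at chr7:141010695-141010994 on the minus strand. Ifitm10 has 3 such windows, of which the one at chr7:142372210-142372509 on the minus strand is shown.

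Ifitm1: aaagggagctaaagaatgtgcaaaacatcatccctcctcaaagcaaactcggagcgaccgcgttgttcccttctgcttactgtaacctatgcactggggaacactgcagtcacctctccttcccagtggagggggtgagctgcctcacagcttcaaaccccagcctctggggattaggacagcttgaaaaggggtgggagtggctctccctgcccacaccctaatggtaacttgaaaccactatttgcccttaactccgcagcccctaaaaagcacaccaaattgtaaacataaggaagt

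Ifitm2: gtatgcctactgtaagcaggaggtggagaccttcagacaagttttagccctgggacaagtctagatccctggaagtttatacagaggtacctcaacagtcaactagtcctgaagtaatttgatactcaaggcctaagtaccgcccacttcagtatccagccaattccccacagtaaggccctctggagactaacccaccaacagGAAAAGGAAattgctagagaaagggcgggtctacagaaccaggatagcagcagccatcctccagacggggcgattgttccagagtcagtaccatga

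Ifitm3: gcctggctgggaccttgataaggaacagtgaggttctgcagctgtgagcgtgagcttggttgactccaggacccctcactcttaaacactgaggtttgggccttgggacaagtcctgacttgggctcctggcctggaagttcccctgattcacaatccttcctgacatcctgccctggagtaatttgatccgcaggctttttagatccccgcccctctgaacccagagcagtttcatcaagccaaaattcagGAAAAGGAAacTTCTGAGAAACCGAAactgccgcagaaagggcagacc

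Ifitm10: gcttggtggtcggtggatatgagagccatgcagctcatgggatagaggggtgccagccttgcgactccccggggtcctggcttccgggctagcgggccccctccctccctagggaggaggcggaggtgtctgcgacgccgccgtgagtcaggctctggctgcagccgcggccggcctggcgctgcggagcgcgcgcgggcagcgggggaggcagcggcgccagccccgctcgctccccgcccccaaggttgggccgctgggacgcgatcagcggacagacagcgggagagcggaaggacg

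The Ifitm2 window held 1 ISRE core, beginning at position -46 relative to the start site. The Ifitm3 window held 2, whose first bases lay at offsets of 2 and 19 bases from the start site, and 1 GAS match at an offset of 13 bases. That GAS match shares its last letters with the second ISRE core. The Ifitm1 window and the 3 Ifitm10 windows held neither motif. Across all 32851 windows of the same length, 8.56% held an ISRE core and 8.30% a GAS match. Among 43 genes of a list of interferon-stimulated genes that had a window, 23 (53.5%) held an ISRE core in at least one of their windows, against 9.76% of all 27025 genes. The longest run of bases common to the Ifitm2 and Ifitm3 windows was 13 (caggaaaaggaaa), which includes an ISRE core in both, whereas Ifitm1 shared at most 8 bases in a row with either. GC content was 51.3% for Ifitm1, 49.7% for Ifitm2, 53.0% for Ifitm3 and 73.7% for the Ifitm10 window shown, with a median of 52.7% over all windows. A match is only a match of letters, and binding was not measured.

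Values are given as normalized reads, the read counts of a library divided by 1 factor. Reads counted over the genes of the deposited table numbered between 15947556 and 34140486 per library. A single read was worth between 0.661 and 1.37 normalized reads, so that the floor of 3 reads corresponded to between 1.98 and 4.10. Cd4, Cd8a and Foxp3 followed the labels, with Foxp3 between 1178 and 1896 in Treg PBS and at most 12.1 elsewhere. Cd8a was at least 23475 in CD8 libraries and at most 1302 in the others (in CD4 DTx replicate 3), and Cd4 was at most 413 in CD8 libraries (in CD8 DTx replicate 1). The libraries numbered 3 in all 5 groups held the Y-linked transcript Ddx3y (2598 to 4026) and no Xist, whereas the others held Xist (942 to 5798) and no Ddx3y, so that animal sex moved with the replicate number. In CD4 PBS and CD8 PBS this leaves 1 library of each sex.

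Ifitm1 was low in all PBS groups and among the abundant transcripts of both DTx groups. In Treg PBS it measured 0.847, 78.0 and 64.8 normalized reads in replicates 1, 2 and 3. In CD4 PBS it measured 77.9 and 1.98 in replicates 2 and 3, the latter from 3 reads, and in CD8 PBS 117 and 13.3. After DTx it reached 29848, 8904 and 13008 in CD4 cells and 33089.9, 29091 and 14751 in CD8 cells. The lowest DTx library was thus far above the highest PBS library, and the groups did not overlap. Mean Ifitm1 was 360-fold higher in CD4 DTx and 536-fold higher in CD8 DTx than in Treg PBS, and the Treg PBS mean was 1.20-fold that of CD4 PBS and 0.737-fold that of CD8 PBS, with overlapping values.

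Ifitm2 differed from Ifitm1 in being higher in Treg PBS than in CD4 PBS and CD8 PBS. The 3 Treg PBS libraries held 641, 739.9 and 506 normalized reads, whereas CD4 PBS held 157 and 38.3 and CD8 PBS 70.5 and 12. After DTx it measured 21963, 9227 and 12749 in CD4 cells and 10938, 8864 and 4586 in CD8 cells. Every DTx library exceeded every Treg PBS library, as did 10.2% of all genes tested for CD4 cells and 8.71% for CD8 cells, and every Treg PBS library exceeded every PBS conventional library. The ratio of means was 150 for CD4 DTx to CD4 PBS (log2 fold change 7.44, SE 0.71) and 197 for CD8 DTx to CD8 PBS (7.97, SE 0.71). Against Treg PBS, the means were 23.3-fold higher in CD4 DTx and 12.9-fold higher in CD8 DTx.

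Ifitm3, the endosomal restriction factor of the family, was ordered as Ifitm2. Treg PBS libraries held 612, 422 and 198 normalized reads, those of CD4 PBS 153 and 29.7, and those of CD8 PBS 64.4 and 30.7. After DTx it measured 13631, 6003 and 6126 in CD4 cells and 5067, 3319 and 1586 in CD8 cells. The lowest DTx value lay above the highest Treg PBS value, with the same shares of all genes as for Ifitm2, and the lowest Treg PBS value above the highest of CD4 PBS or CD8 PBS. The ratio of means was 94.0 for CD4 DTx to CD4 PBS (log2 fold change 6.85, SE 0.72) and 69.9 for CD8 DTx to CD8 PBS (6.04, SE 0.72).

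Ifitm10 was high in CD8 libraries with either treatment. Its normalized reads were 210, 82.3 and 64.8 for Treg PBS, 410 and 207 for CD4 PBS, and 329, 589 and 640 for CD4 DTx. In CD8 cells it measured 1963 and 1546 after PBS and 1553, 2871 and 1662 after DTx. All 5 CD8 libraries were above all 8 libraries of CD4 and Treg cells, a pattern that 70 of the 12667 genes tested showed (0.553%), whereas PBS and DTx libraries of the same cell type overlapped. The ratio of means of DTx to PBS was 1.68 in CD4 cells (log2 fold change 0.77, SE 0.51) and 1.16 in CD8 cells (0.16, SE 0.51).

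**Figure D1:**
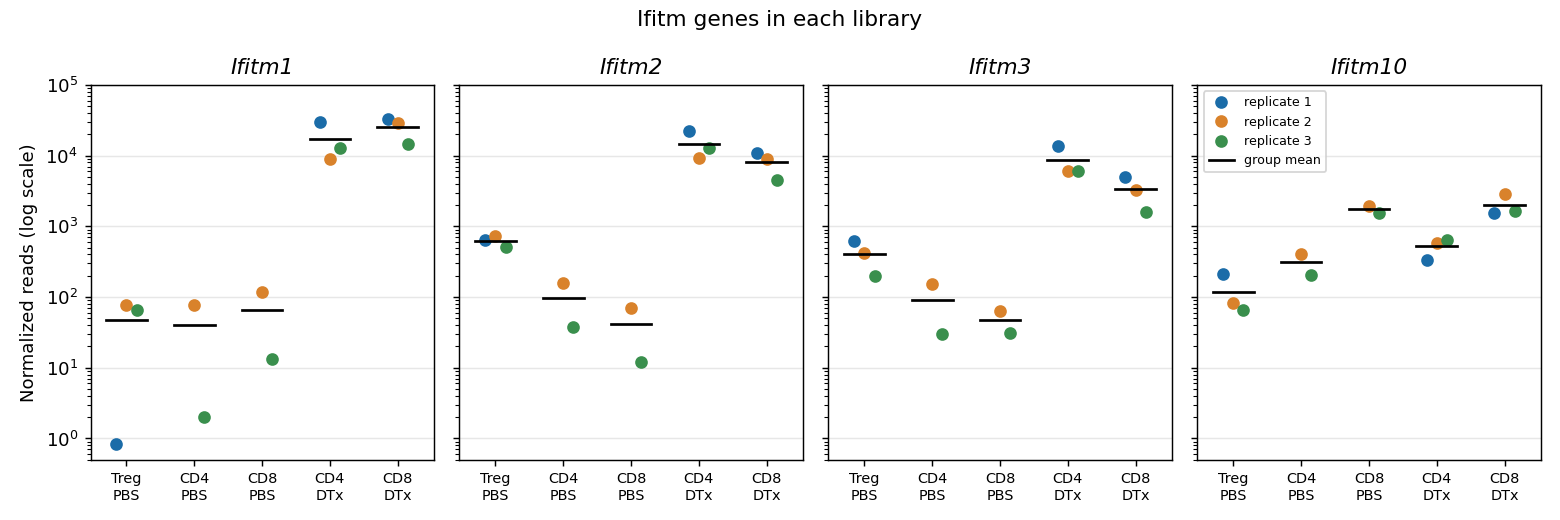
Normalized reads (log axis) of Ifitm1, Ifitm2, Ifitm3 and Ifitm10 in each of the 13 libraries, by group, with colors for the replicate number and black lines for group means. DTx libraries of Ifitm1, Ifitm2 and Ifitm3 sit between 1586 and 33089.9, above all PBS libraries of the same gene, while Ifitm10 is between 1546 and 2871 in CD8 libraries and at most 640 elsewhere.

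Ifitm1, Ifitm2 and Ifitm3, in both cell types, had every DTx library above every PBS library, which held for 23.4% of all genes tested in CD4 cells and 22.8% in CD8 cells. In the order of log2 fold changes over 12667 genes, Ifitm1, Ifitm2 and Ifitm3 stood at places 3, 26 and 50 in CD4 cells and 2, 8 and 53 in CD8 cells, with Ifitm10 at 2415 and 5149. These positions describe the values that chose the family and are not evidence about it. Ifitm2 and Ifitm3 were also above every CD4 PBS and CD8 PBS library in Treg PBS, a pattern shown by 29.2% and 29.7% of genes tested. These comparisons use the same PBS libraries as those after DTx. For Ifitm2 the Treg PBS mean was 6.44-fold that of CD4 PBS and 15.3-fold that of CD8 PBS, and for Ifitm3 4.5-fold and 8.64-fold.

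Within both PBS conventional groups, replicate 2 was higher than replicate 3 for Ifitm1, Ifitm2 and Ifitm3. These libraries also differed in sex, as above, and the part of sex in this spread was not tested. With all libraries numbered 3 left out, an alternative added after the values were seen, the log2 fold changes after DTx were 7.69, 6.49 and 5.88 for Ifitm1, Ifitm2 and Ifitm3 in CD4 cells and 8.04, 7.11 and 5.97 in CD8 cells. Comparing replicates 2 alone, DTx was 58.7-fold PBS for Ifitm2 in CD4 cells and 126-fold in CD8 cells, and comparing replicates 3 alone 333-fold and 382-fold.

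Together, Ifitm1, Ifitm2 and Ifitm3 took up a visible part of the DTx libraries. Their reads summed to 0.258%, 0.0989% and 0.135% of the reads counted over all genes in CD4 DTx replicates 1, 2 and 3, and to 0.191%, 0.150% and 0.0889% in CD8 DTx. The share was between 0.00321% and 0.00528% in Treg PBS, between 0.000310% and 0.00178% in CD4 PBS, and between 0.000248% and 0.00115% in CD8 PBS. The 95% Wilson interval of the smallest share, in CD8 PBS replicate 3, was 0.000184% to 0.000335%, and that of the largest PBS share, in Treg PBS replicate 2, was 0.00498% to 0.00559%, both covering counting error only.

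To compare levels between the genes, normalized reads were divided by the exon length in kilobases (GENCODE M21, a GRCm38 annotation), which was available for 12659 genes. Per kilobase, the mean level in CD4 DTx was 15771 for Ifitm1 (place 76 among these genes), 22361 for Ifitm2 (place 44) and 12665 for Ifitm3 (place 105). In CD8 DTx it was 23441 for Ifitm1 (place 51), 12411 for Ifitm2 (place 121) and 4902 for Ifitm3 (place 348). No order of Ifitm2 against the others is read from these levels, because 48.5% of its 50-base runs occur in other genes and only unique reads were counted. In Treg PBS, Ifitm2 measured 960 and Ifitm3 606 per kilobase, while Ifitm1 measured 43.8 (place 9188). Ifitm10 was below the others in both DTx groups, with 124 in CD4 DTx and 483 in CD8 DTx.

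The mix of the 3 neighbouring genes was steady within a DTx group. The ratio of Ifitm1 to Ifitm2 normalized reads was 1.36, 0.965 and 1.02 in CD4 DTx replicates 1, 2 and 3, and 3.03, 3.28 and 3.22 in CD8 DTx. The ratio of Ifitm3 to Ifitm2 was 0.621, 0.651 and 0.481 in CD4 DTx and 0.463, 0.374 and 0.346 in CD8 DTx. Neither ratio overlapped between the cell types. The Ifitm1 to Ifitm2 ratio in CD4 DTx was 0.347 times that in CD8 DTx, and the Ifitm3 to Ifitm2 ratio 1.48 times. A two-sided exact permutation test gave p = 0.1 for both ratios, 2 having been compared (adjusted p = 0.1), which is the smallest value that 20 labellings allow, so 3 libraries against 3 could not reach 0.05. That test ignores any pairing by replicate number. An exact sign-flip permutation test over the 3 pairs, added after the values were seen, gave p = 0.25 for both ratios, the smallest that 8 sign assignments allow, with every pair differing in the same direction. In Treg PBS the Ifitm3 to Ifitm2 ratio ranged from 0.391 to 0.955. In CD8 PBS replicate 3 it was 2.56, on 23 Ifitm3 and 9 Ifitm2 reads.

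**Figure D2:**
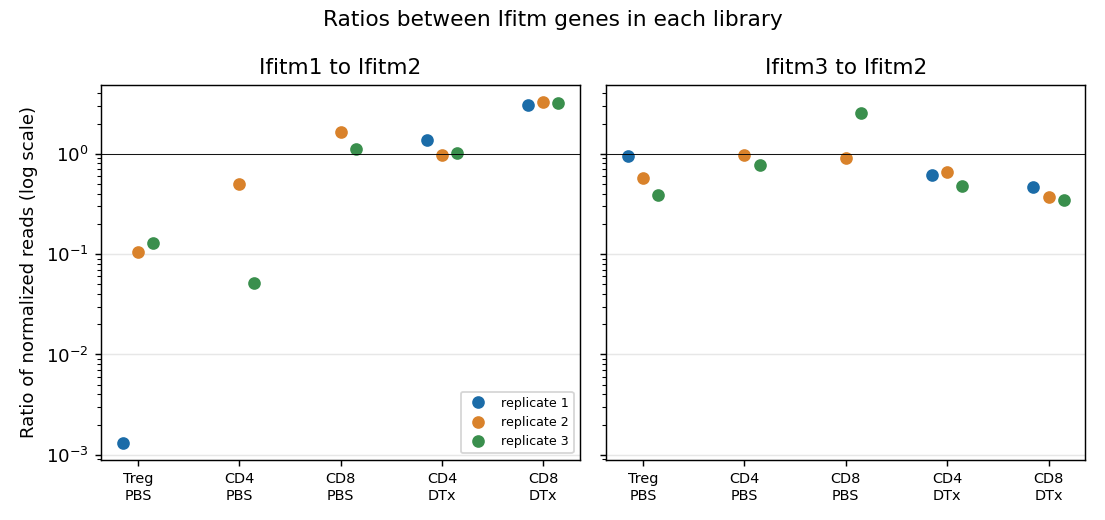
Ratio of Ifitm1 to Ifitm2 and of Ifitm3 to Ifitm2 normalized reads (log axis) in each library, by group, with colors for the replicate number. The CD8 DTx libraries lie between 3.03 and 3.28 for Ifitm1 to Ifitm2 and the CD4 DTx libraries between 0.965 and 1.36. The lowest points, Treg PBS replicate 1 and CD4 PBS replicate 3, rest on 1 and 3 Ifitm1 reads.

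The CD4 and CD8 cells could be compared by test, since this comparison did not choose the genes. Between CD4 DTx and CD8 DTx, where limma called 1.0% of all genes tested in either direction, none of the 4 genes was called, nor was any with edgeR or DESeq2. For Ifitm1 the log2 difference, CD4 minus CD8, was -0.68 (95% interval -3.80 to 2.44, adjusted p = 0.94), for Ifitm2 0.85 (-0.53 to 2.22, adjusted p = 0.75) and for Ifitm3 1.41 (0.01 to 2.81, adjusted p = 0.43). Ifitm3 was higher in all 3 CD4 DTx libraries than in any CD8 DTx library, as were 6.02% of all genes tested, and its unadjusted p was 0.049. The interval of Ifitm1 leaves room for differences of several fold in either direction. Same-numbered libraries of these groups were taken as pairs from their joint deviations (r = 0.36, 0.207 and 0.59), although no label names pairs. With the replicate number as a block in limma, the intervals were -3.62 to 2.26 for Ifitm1 (adjusted p = 0.87) and -0.17 to 1.86 for Ifitm2 (adjusted p = 0.42). For Ifitm3 the interval was 0.66 to 2.16 (adjusted p = 0.052), and again no gene of the 4 was called. Within the 3 pairs, Ifitm1 was higher in CD8 DTx in 3 of 3, and Ifitm2 and Ifitm3 were higher in CD4 DTx in 3 of 3.

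Ifitm10 came nearest to a call. Its mean was 3.91-fold higher in CD8 DTx than in CD4 DTx (log2 difference -1.96, SE 0.46, interval -2.96 to -0.97, adjusted p = 0.058) and 5.69-fold higher in CD8 PBS than in CD4 PBS (-2.58, SE 0.56, interval -3.80 to -1.36, adjusted p = 0.053). Groups that did not overlap with CD4 lower made up 7.88% of genes after DTx and 21.7% after PBS. In the PBS comparison 0.908% of genes were called, and Ifitm1, Ifitm2 and Ifitm3 had an adjusted p of 1 (log2 differences -1.42, 1.37 and 0.60). With the replicate number as a block the adjusted p of Ifitm10 was 0.041 after DTx, where the difference stayed under 4-fold, and 0.045 after PBS, which made it a call. This block fits the same shift per replicate number to every group. Same-numbered CD4 PBS and CD8 PBS libraries gave r = 0.189, so the call after PBS rests on a pairing not established for these groups. Averaged over PBS and DTx, a contrast added after these values were seen, the log2 difference was -2.27 with an adjusted p of 0.00505.

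The interaction, the effect of DTx in CD4 cells minus that in CD8 cells, was not called for any of the 4 genes, with 0.0474% of all genes called (6 genes). The estimates were 0.74 (interval -4.19 to 5.67) for Ifitm1, -0.53 (-2.70 to 1.65) for Ifitm2, 0.81 (-1.40 to 3.03) for Ifitm3 and 0.61 (-0.96 to 2.19) for Ifitm10, each with an adjusted p of 1. A difference in the DTx effect was therefore not detectable with these libraries.

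Few genes of a list of interferon-stimulated genes were called after DTx at the 4-fold threshold. The list held 60 genes, of which 56 were tested, and left out the Ifitm genes, whose DTx differences carry no test. In CD4 cells after DTx, 1 rose, Oas3, a sensor of double-stranded RNA that activates RNase L, and 1 fell, Oasl1, a relative of the OAS enzymes. The background was 5.06% of all genes called higher and 1.79% called lower. Oas3 measured 529 and 489 normalized reads in CD4 PBS and 1954, 3246 and 3365 in CD4 DTx (log2 fold change 2.45, adjusted p = 0.0012). Oasl1 measured 156 and 367 in CD4 PBS and 37.4, 63.4 and 40.8 in CD4 DTx (-2.36, adjusted p = 0.020). Neither gene overlapped between DTx and PBS. Oasl1 was not called without CD4 PBS replicate 3 (adjusted p = 0.244) or CD4 DTx replicate 3 (adjusted p = 0.0507).

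In CD8 cells after DTx none of the 56 rose, with 3.87% of all genes called higher, and 1 fell, Oas2, another OAS enzyme, with 1.59% called lower. Oas2 measured 94.8 and 208 normalized reads in CD8 PBS and 17.6, 21.2 and 20.2 in CD8 DTx (log2 fold change -2.78, adjusted p = 0.024). The median log2 fold change of the 56 was 0.61 in CD4 cells and 0.38 in CD8 cells, against -0.04 and -0.03 over all genes tested. At an unadjusted p under 0.05 there were 26 and 15 of the 56 with limma. With edgeR these were 29 in CD4 and 18 in CD8 cells, beside 3211 and 3068 of all 12667 genes tested. Like limma, edgeR and DESeq2 called none of the 56 higher in CD8 cells. Oas2 lost its call without CD8 PBS replicate 3 (adjusted p = 0.281), CD8 DTx replicate 1 (0.0637) or CD8 DTx replicate 2 (0.0566). Isg15, a ubiquitin-like protein induced by type I interferon, measured 235 and 455 in CD4 PBS and 1038, 505 and 514 in CD4 DTx and was not called. Leaving out the libraries numbered 3 left 1 library each in CD4 PBS and CD8 PBS, so calls among the 56 are not read from that setting. With the adjusted p alone and no threshold of fold, 11 were higher and 2 lower in CD4 cells, and 5 higher and 1 lower in CD8 cells. Over all 12667 genes tested, that setting called 1612 genes in CD4 and 1377 in CD8 cells, in either direction. Those higher in CD4 cells included Gbp3 (log2 fold change 1.72, adjusted p = 0.00055), Gbp2 (1.31, adjusted p = 0.0018) and Gbp7 (1.32, adjusted p = 0.0040). In CD8 cells Gbp3 changed by 1.46 (adjusted p = 0.0025), Gbp7 by 1.12 (adjusted p = 0.014) and Gbp2 by 0.35 (adjusted p = 0.32).

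**Figure D3:**
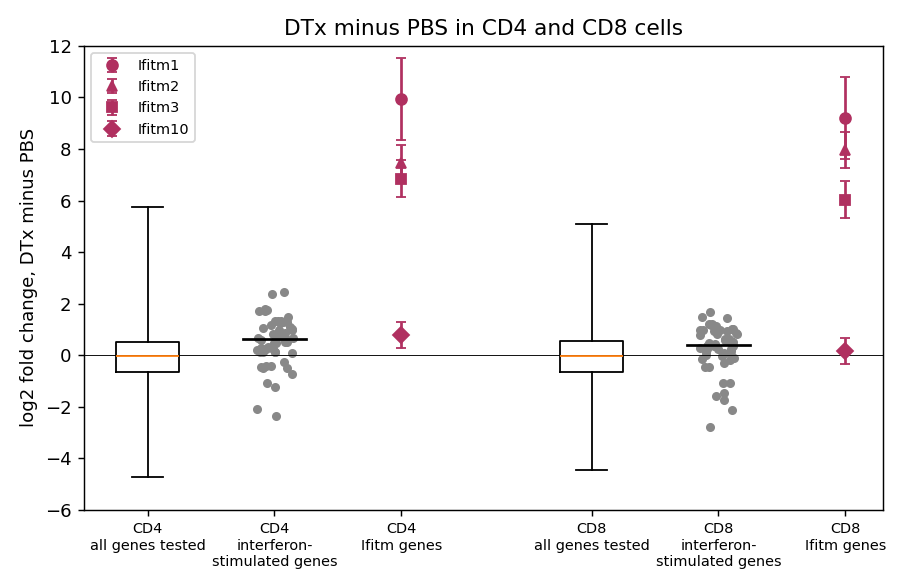
Log2 fold changes, DTx minus PBS, in CD4 (left) and CD8 (right) cells. Boxes give the median and quartiles of all 12667 genes tested with whiskers from percentile 1 to percentile 99, gray points the 56 interferon-stimulated genes with their median as a line, and red markers the 4 Ifitm genes with the SE of the model. The interferon-stimulated genes reach at most 2.45 in CD4 and 1.66 in CD8 cells, while Ifitm1, Ifitm2 and Ifitm3 lie between 6.04 and 9.95. The Ifitm genes were chosen by this response, so their distance from the list is a description and no test.

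Between Treg PBS and CD4 PBS, 6 of the 56 were higher in Treg cells and 1 lower, where 7.85% of all genes were called higher and 2.35% lower. Those higher included Irf8, a transcription factor of the interferon regulatory family (log2 fold change 3.99, adjusted p = 4.2e-05), Isg20, an exonuclease (2.94, adjusted p = 0.00047), Gbp3, a guanylate-binding protein (2.81, adjusted p = 1.9e-05), and Iigp1, a GTPase of host defence (2.60, adjusted p = 0.00091). Oas2 was the 1 lower. Iigp1 was also the 1 member called between the DTx groups, higher in CD4 DTx (2505, 2847 and 2498 normalized reads) than in CD8 DTx (584, 352 and 485, adjusted p = 0.0070).

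Of 19 genes of interferon signalling, Ifng, the cytokine itself, rose in both cell types. It measured 296 and 479 normalized reads in CD4 PBS and 2212, 1085 and 1638 in CD4 DTx (log2 fold change 2.06, adjusted p = 0.031). In CD8 cells Ifng measured 758 and 681 after PBS and 9423, 2672 and 3401 after DTx (2.62, adjusted p = 0.012). No DTx library overlapped a PBS library of the same cell type. With the replicate block the fold of Ifng in CD4 cells fell under 4 (1.79, adjusted p = 0.015), and the call held in 9 of 16 alternatives, being lost without CD4 PBS replicate 2 (adjusted p = 0.215), CD4 PBS replicate 3 (0.0884), CD4 DTx replicate 1 (0.0831) or CD4 DTx replicate 3 (0.0647). In CD8 cells it was lost without CD8 PBS replicate 2 (adjusted p = 0.0562) or CD8 PBS replicate 3 (0.126). Ifngr2, the signalling chain of the interferon gamma receptor, fell in CD8 cells, from 645 and 1413 to 19.4, 47.2 and 12.1 (-5.35, adjusted p = 0.0019). In CD4 cells it measured 1692 and 2499 after PBS and 110, 992 and 481 after DTx, with no overlap but not called (-2.45, adjusted p = 0.067), and its interaction was not called (2.90, adjusted p of 1). In CD4 DTx it was higher than in CD8 DTx (log2 difference 4.0, adjusted p = 0.020), a call lost without CD4 DTx replicate 2 (0.0723), CD4 DTx replicate 3 (0.0665) or CD8 DTx replicate 1 (0.0646). Ifngr1, the other chain of that receptor, was higher after DTx in both cell types but under the 4-fold threshold. Its log2 fold changes were 1.89 in CD4 cells (adjusted p = 0.0027) and 1.51 in CD8 cells (adjusted p = 0.013). Socs3 was called lower in CD8 cells by edgeR and DESeq2 but not by limma (-3.10, adjusted p = 0.070).

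Among 12 genes whose products bind or modify IFITM proteins, Nedd4, the ubiquitin ligase that marks Ifitm3 for degradation, rose in CD4 cells after DTx, and none of the 12 was called in CD8 cells by limma, edgeR or DESeq2, with 0 of the 12 at an unadjusted p under 0.05 by limma. Nedd4 measured 158 and 94.4 normalized reads in CD4 PBS and 643, 550.1 and 785 in CD4 DTx (log2 fold change 2.40, adjusted p = 0.0057). It was not called without CD4 PBS replicate 3 (adjusted p = 0.082). In CD8 cells Nedd4 was higher, with 2034 and 1758 after PBS and 1644, 2122 and 2236 after DTx. Between CD4 PBS and CD8 PBS it was called (-3.94, adjusted p = 0.0028), and between CD4 DTx and CD8 DTx it was not (-1.60, adjusted p = 0.097). Cd81, the surface partner of Ifitm1, was not called after DTx. Its normalized reads were 10477, 8694 and 11533 for Treg PBS, 715 and 1230 for CD4 PBS, 636, 946 and 712 for CD4 DTx, and between 73.9 and 356 for CD8 DTx. Cd81 was higher in Treg PBS than in CD4 PBS (3.44, adjusted p = 0.00084), and higher in CD4 DTx than in CD8 DTx (2.21, adjusted p = 0.040), the latter in 8 of 17 alternatives and lost in 5 of the 6 that leave out 1 library (adjusted p between 0.0662 and 0.145).

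Of 5 other inhibitors of virus entry that were tested, Serinc3, a membrane protein that lowers the infectivity of retroviral particles, rose in CD4 cells after DTx. It measured 16050.4 and 13918 normalized reads in CD4 PBS and 69177, 78359 and 58095 in CD4 DTx (log2 fold change 2.19, adjusted p = 0.00042), in all 16 alternatives. None of the 5 was called in CD8 cells after DTx by limma, edgeR or DESeq2, with 2 at an unadjusted p under 0.05 by limma. Serinc3 in CD8 cells measured 17547 and 11344 after PBS and 46505, 51557 and 31915 after DTx, a change with an adjusted p of 0.0045 that stayed under the 4-fold threshold (1.59). Serinc3 was also higher in Treg PBS than in CD4 PBS (2.56, adjusted p = 9.6e-05), as was Cd74, the class II invariant chain (4.22, adjusted p = 0.00032). Of 11 further relatives of the family, 3 were tested (Ifitm6, Prrt1 and Tmem91), and none was called after DTx in either cell type by limma, edgeR or DESeq2, with 1 in CD4 and 0 in CD8 cells at an unadjusted p under 0.05 by limma.

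The genes next to the Ifitm genes were read in the order of RefSeq along chromosome 7. On one side of the trio of Ifitm2, Ifitm1 and Ifitm3, Athl1, Gm15542 and Psmd13 had log2 fold changes after DTx of 0.52, 0.45 and 0.69 in CD4 cells and 0.47, -0.08 and 0.82 in CD8 cells, none of them called. The change of Psmd13 in CD8 cells had an adjusted p of 0.044 but stayed under the 4-fold threshold. On the other side came Ifitm6, B4galnt4 and Pkp3. Ifitm6, known from myeloid cells, measured 0 and 1.32 normalized reads in CD4 PBS and 16.8, 15.3 and 22.4 in CD4 DTx, with no overlap but not called (3.64, adjusted p = 0.056). In CD8 cells it was listed at 0 in both PBS libraries and measured 2.77, 17.3 and 1.35 after DTx (adjusted p = 0.19).

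B4galnt4, a glycosyltransferase, was called higher in CD8 cells after DTx, from 26.7 and 1.33 to 268, 220.5 and 738 normalized reads (log2 fold change 5.46, adjusted p = 0.0043). The value of 1.33 is 1 read, and without that library, CD8 PBS replicate 3, the change was 3.67 and not called (adjusted p = 0.072). In CD4 cells B4galnt4 measured 179 and 50.9 after PBS and 503, 656 and 1809 after DTx (3.13, adjusted p = 0.052). Pkp3, a plakophilin of desmosomes, changed by 1.61 in CD4 cells (adjusted p = 0.0015) and 1.35 in CD8 cells (adjusted p = 0.0061), under the 4-fold threshold. Around Ifitm10, Ctsd, a lysosomal protease, changed by 1.56 (adjusted p = 0.0042) and 1.83 (adjusted p = 0.0026), and Lsp1, an actin-binding protein of leukocytes, by 1.34 (adjusted p = 0.021) and 1.29 (adjusted p = 0.030), also under the threshold, while Muc6, Tollip, Mob2 and Prr33 had an adjusted p of 0.26 or more.

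**Figure D4:**
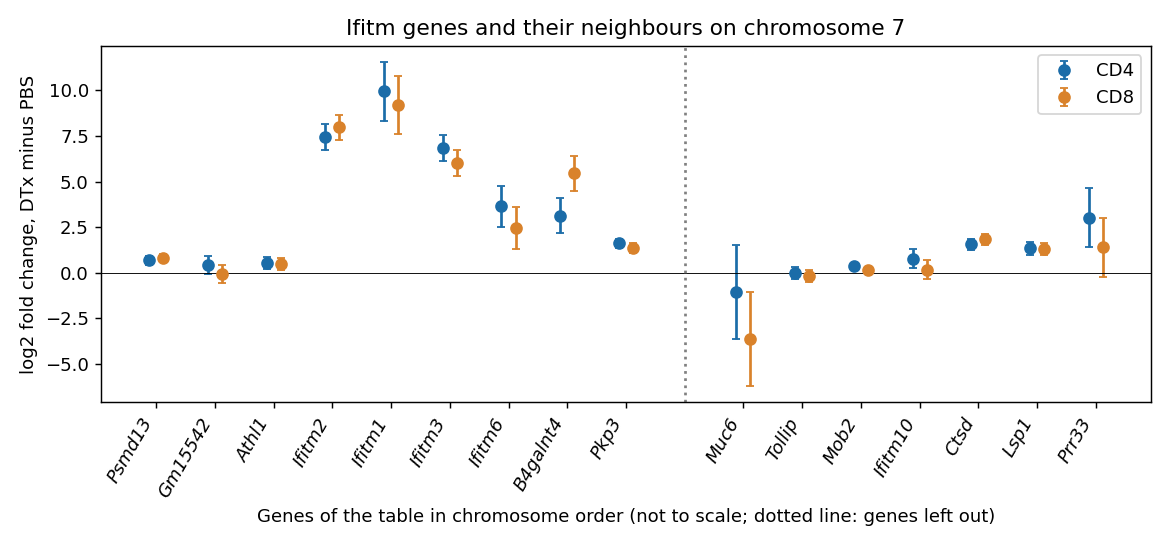
Log2 fold changes, DTx minus PBS, of the Ifitm genes and the 3 genes of the table on each side of them, in the order of chromosome 7 (not to scale), with bars for the SE of the model, blue for CD4 and orange for CD8 cells. Ifitm2, Ifitm1 and Ifitm3 lie between 6.04 and 9.95, Ifitm6 and B4galnt4 between 2.45 and 5.46, and Ifitm10 at 0.77 and 0.16.

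The genes most like each Ifitm gene over the 13 libraries were found by Pearson r of log2 values, given with no test, since the libraries fall apart by treatment and cell type and any gene that follows that division scores high. Ifitm2 and Ifitm3 were most like each other (r = 0.986), followed for Ifitm2 by the helicase Ddx28 (0.982), the histamine receptor Hrh4 (0.981), the transcriptional regulator Id2 (0.969) and the inflammatory caspase Casp1 (0.965). For Ifitm3 the next were Id2 (0.974), Ddx28 (0.972), Evi2a (0.960) and Hrh4 (0.960). Ifitm1 was most like Il18rap, a chain of the IL-18 receptor (0.967), Serpinb1a, an inhibitor of granule proteases (0.946), Ltk (0.946), Nek6 (0.943) and Nccrp1 (0.937). Ifitm1 itself had r = 0.860 with Ifitm2 and 0.850 with Ifitm3.

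The pattern of Ifitm10 was nearest to that of CD8-associated genes, namely Ly6c2 (0.947), the T cell receptor segment Trbv14 (0.946), Cd163l1 (0.923), the granule protease Gzmm (0.914) and Armc7 (0.912). Its r was 0.138 with Ifitm2, 0.176 with Ifitm3 and 0.489 with Ifitm1. Gzmm measured 380 ± 44.3 normalized reads (SD, n = 2) in CD8 PBS and 1073 ± 703 (SD, n = 3) in CD8 DTx, against 19.7 ± 8.55 (SD, n = 2) in CD4 PBS and 77.5 ± 33.0 (SD, n = 3) in CD4 DTx.

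Markers of other cells that express IFITM genes were read beside these values. The summed level of 15 myeloid genes in the table (Ifitm6 among them) was between 1643 and 1696 normalized reads in CD4 PBS, between 298 and 2498 in CD4 DTx and between 1334 and 4545 in Treg PBS. In CD8 cells the sum was between 917 and 4501 after PBS and between 2333 and 7697 after DTx. The highest library was one of CD8 DTx for 6 of the 15 myeloid genes and for 4 of 4 NK genes, of Treg PBS for 6 myeloid genes, of CD4 PBS for 2 and of CD4 DTx for 1. The myeloid genes did not move together in CD8 cells. Lyz2, the lysozyme of phagocytes, measured 1321 and 497 after PBS and 195, 51.0 and 198 after DTx. Itgam, an integrin chain, measured 205 and 13.3 after PBS and 513, 1554 and 1606 after DTx, and S100a8, a calcium-binding protein of neutrophils, 4.86 and 0 after PBS and 18.5, 172 and 5.38 after DTx. Cd68 measured 273 and 124 after PBS and 1055, 1034 and 607 after DTx, while Tyrobp, Fcer1g and Csf1r overlapped between PBS and DTx. The sum of 4 NK genes was between 1956 and 5211 in CD8 PBS and between 1501 and 9210 in CD8 DTx, and in CD4 cells between 156 and 314 after PBS and between 414 and 833 after DTx. The sum of 4 B cell genes was between 147 and 272 in CD4 PBS and between 92.6 and 158 in CD4 DTx, and in CD8 cells between 794 and 853 after PBS and between 276 and 1296 after DTx. Melanocyte genes summed to between 64.5 and 185 in the DTx libraries and between 171 and 1229 in the PBS libraries. The sum of 4 erythroid genes was between 1617 and 11110 in CD4 PBS and CD8 PBS libraries, against 0 to 1598 in CD4 DTx and 32.3 to 1275 in CD8 DTx. The 1 endothelial gene in the table, Pecam1, which T cells also express, measured between 7092 and 7291 after PBS and between 1772 and 2719 after DTx in CD4 cells. In CD8 cells it measured between 3762 and 3865 after PBS and between 944 and 1403 after DTx. The part of these signals in the Ifitm values was not tested.

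Reads of Ifitm genes can be lost or shared, because only uniquely mapped reads were counted. Of all runs of 50 bases in the annotated transcripts of a gene, 48.5% for Ifitm2 also occurred in transcripts of another gene, Ifitm3 and several predicted genes among them, against 10% for Ifitm3, 5.02% for Ifitm1 and 3.51% for Ifitm10. The level of Ifitm2 is therefore the most uncertain of the 4, and ratios with Ifitm2 are to be compared between libraries rather than read as absolute.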

How the data were processed

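According to the labels and the methods of the study, the authors made SMART-type libraries from sorted cells, trimmed adaptors with Cutadapt, aligned reads with hisat2 to NCBIM37 (mm9) and kept unique alignments. The counter and strand setting are not given in the sources used here, so overlapping genes (Ifitm2 and Ifitm10 among them) are uncertain. The authors deposited a normalized signal per gene and library, called FPM and scaled with intergenic reads. In every library 100% of its entries were, within 0.01 read, multiples of the value of 1 read, which gave recovered reads.

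Genes with at least 10 in at least 2 of 13 libraries were fitted on log2(value + 1) with limma 3.58.1 (R 4.3.3) over all groups, with Benjamini-Hochberg adjustment over all 12667 genes. A gene was called at an adjusted p-value under 0.05 and a change over 4-fold, and "rose" or "fell" is used of called genes. The log2(value + 1) scale understates changes of low genes. The study used DESeq2, which here was run, like edgeR, on recovered reads as an alternative. Replicates were isolated on separate days. Same-numbered CD4 DTx and CD8 DTx samples deviated jointly from their group means (r = 0.36, 0.207 and 0.59 for numbers 1, 2 and 3). For this comparison the numbers were therefore taken to pair the libraries, as read from the data, although no label names pairs.

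The genes and lists were chosen with earlier results of these data known. Named were the 4 Ifitm genes, the 5 genes most like each, up to 4 called genes per list by size of change, 3 table genes on each side, and Cd4, Cd8a and Foxp3. Isg15, Ifitm6, Gzmm, Lyz2, Itgam, S100a8, Cd68, Pecam1, Gbp2, Gbp7, Ifngr1, Socs3 and Ncr1 were given values after the values had been seen. Tyrobp, Fcer1g, Csf1r, Klrb1c, Klrb1b and Eomes were named after the values had been seen. Protein sequences were not used here.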

Additional observations from a re-analysis of the deposited data

How the results depend on the processing

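The log2 fold changes of Ifitm1, Ifitm2 and Ifitm3 after DTx kept their direction under all 15 alternatives in both cell types (7.58 to 12.3, 6.44 to 8.45 and 5.69 to 8.01 in CD4 cells, 7.69 to 10.7, 6.74 to 9.20 and 5.51 to 6.56 in CD8 cells), and that of Ifitm10 ranged from 0.103 to 1.27 in CD4 and from -0.117 to 0.334 in CD8 cells. With PBS groups of 2 libraries, single PBS libraries set most of this range. The 50-base runs, the promoters and the likeness have no alternative, and the cause of the changes listed here was not tested.

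The genes called after DTx numbered 868 in CD4 and 692 in CD8 cells, in Treg PBS 1292 against CD4 PBS and 1192 against CD8 PBS, and in CD4 against CD8 127 after DTx, 115 after PBS and 6 in the interaction. Without the fold threshold these were 1612, 1377, 2581, 2367 and 208 for the comparisons up to that of the DTx groups. Without the libraries numbered 3, 437, 158, 796 and 451 genes were called in the first 4, and limma called 0 in the other 3, where 1402, 682 and 508 genes had an unadjusted p under 0.05 (no other tool was run without them). With only the groups of a comparison, 201 were called in CD8 cells after DTx, 59 between the DTx groups and 34 between the PBS groups. DESeq2 called 233, 230 and 70 in the last 3 and edgeR 76 between the DTx groups, and a pseudocount of 5 left 1 in the interaction. Leaving out single libraries gave 496 to 838, 153 to 994, 840 to 1343, 544 to 1154, 51 to 131, 57 to 112 and 0 to 14 for the 7 comparisons, the lowest of the first 4 being without replicate 3 of the PBS group compared.

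Interferon-stimulated genes called, 2 in CD4 and 1 in CD8 cells, became 13 and 6 without the fold threshold. They numbered 1 and 0 with only the groups compared, and 3 (Mx1 and Oas3 higher, Oasl1 lower) and 2 with DESeq2. Leaving out single libraries gave 1 to 3 and 0 to 2.

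Among the tested comparisons of Ifitm genes, Ifitm10 between CD4 PBS and CD8 PBS was called with a pseudocount of 5 (-2.56), with DESeq2 (-2.52) and with the replicate block (-2.58, adjusted p = 0.0452), its adjusted p ranging from 0.00106 to 0.968, and between CD4 and CD8 averaged over treatments (-2.27). Without the libraries numbered 3 the interaction changed sign for Ifitm1 (-0.352), Ifitm3 (-0.0951) and Ifitm10 (-0.00211). Leaving out single libraries gave, between CD4 PBS and CD8 PBS, -3.78 to 0.942 for Ifitm1, with the sign changed without CD4 PBS replicate 3 (0.942) and CD8 PBS replicate 2 (0.098), and -0.567 to 1.76 for Ifitm3, and -3.07 to -2.08 for Ifitm10. In the interaction it gave -1.62 to 3.10 for Ifitm1 (-1.62 without CD4 PBS replicate 3, -0.777 without CD8 PBS replicate 2), -1.75 to 0.704 for Ifitm2 (0.479 without CD4 PBS replicate 2, 0.704 without CD8 PBS replicate 3) and -0.349 to 1.98 for Ifitm3 (-0.349 without CD4 PBS replicate 3). Ratios between Ifitm genes kept their direction in all 8 alternatives (log2 -1.68 to -1.43 for Ifitm1 to Ifitm2, 0.475 to 0.699 for Ifitm3 to Ifitm2).

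The replicate block gave 179 calls between the DTx groups, 133 between the PBS groups and 9 in the interaction, and 878, 756, 1307 and 1213 in the others. Apart from Ifng in CD4 cells, no gene named as called in a comparison with a DTx group lost its call with the block. Between DTx and PBS groups only 2 numbers were shared, and same-numbered libraries did not deviate together in CD4 cells (r = -0.21 and -0.311).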
